A study of Mus musculus with 28 samples.

Results

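Of the 71148 regions that the deposited day-35 list of histone H4 lysine 5 acetylation (H4K5Ac) holds on chromosomes 1 to 19, 12886 overlapped no day-35 region of H3K27Ac (histone H3 lysine 27 acetylation) or H3K9Ac (histone H3 lysine 9 acetylation). These H4K5Ac-only regions made up 18.1% of the list (95% Wilson interval 17.8 to 18.4) and 13.1 Mb, or 3.96% of its length. An overlap was 1 shared base or more. The members were chosen by the positions in the 3 day-35 acetyl lists, so the absence of H3K27Ac and H3K9Ac at day 35 is a definition and not a result. The other 58262 H4K5Ac regions, each with H3K27Ac or H3K9Ac, served as the comparison.

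The cells were IDG-SW3, a clonal mouse bone cell line that matures in culture from osteoblast to osteocyte and carries a Dmp1-driven GFP transgene and a temperature-sensitive large T antigen under an interferon-inducible promoter. All groups were expanded at 33 °C with 50 U/mL interferon-gamma and then matured at 37 °C without it, in medium with ascorbic acid and beta-glycerol phosphate. Chromatin immunoprecipitation with sequencing was done for 9 histone marks at day 3 and day 35 of maturation, with 1 library per mark and day. Day-35 cells given vehicle or 100 nM 1,25(OH)2D3, the hormonal form of vitamin D, for 3 h were profiled for the vitamin D receptor (VDR) and for RXR, the retinoid X receptor with which it pairs, with 2 libraries per factor and arm that the labels call biological replicates. The histone libraries carry no hormone label. Each deposited list gives regions with the authors' own score, whose scaling is not stated, and the sources used here give no read depth per library.

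Acetylation of lysine residues in histone tails loosens the contact between histones and DNA and is read by bromodomain proteins. H4K5Ac is placed with H4K12Ac on newly made H4 before it is assembled into chromatin, and it is also added at promoters, enhancers and transcribed chromatin. H3K27Ac and H3K9Ac are commonly used to mark active enhancers and promoters, H3K4me1 marks enhancers in general, H3K4me3 marks promoters, H3K36me3 lies over transcribed gene bodies and H3K9me3 over repressed chromatin.

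A small group of H4K5Ac-only regions carried VDR after hormone, and their sequences are shown first because VDR was no part of the choice. VDR and RXR bind as a pair to a DR3 element, a direct repeat of 2 hexamers separated by 3 bases. In 20 H4K5Ac-only regions both hormone libraries had a VDR peak. A window of 200 bases was centred on the mean VDR peak centre of each. Of the 20 windows, 13 held a DR3 match with at most 1 mismatch (65.0%, 43.3 to 81.9). The same search, on both strands, matched 3.93% of 200-base windows at the centre of all H4K5Ac-only regions and 3.82% at the centre of all H4K5Ac regions. At the centre of the VDR peaks of both hormone libraries in the other H4K5Ac regions it matched 395 of 1070 windows (36.9%, 34.1 to 39.8). A window can reach past the H4K5Ac region itself, and not all of the 13 matches lie inside the region. A match describes the letters and does not show a working site. The 4 windows with a DR3 of 0 mismatches, 3 more with VDR and RXR in both hormone libraries and 1 mismatch, and the Abca12 window, which had the highest VDR score of the 20 and no match, read as follows on the plus strand of mm9 with the DR3 match in capitals.
Ldlrad3 intron, chr2:101874645-101874844: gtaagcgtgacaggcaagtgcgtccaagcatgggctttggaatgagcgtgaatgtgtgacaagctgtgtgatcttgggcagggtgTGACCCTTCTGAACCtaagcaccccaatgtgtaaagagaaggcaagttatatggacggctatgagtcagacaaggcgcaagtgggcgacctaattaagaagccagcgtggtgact
Ccdc102a intron, chr8:97432817-97433016: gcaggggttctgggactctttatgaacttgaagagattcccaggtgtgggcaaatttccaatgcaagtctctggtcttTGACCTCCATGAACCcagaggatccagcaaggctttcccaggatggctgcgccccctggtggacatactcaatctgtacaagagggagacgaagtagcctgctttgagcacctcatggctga
Gm9726 side, chr12:95491325-95491524: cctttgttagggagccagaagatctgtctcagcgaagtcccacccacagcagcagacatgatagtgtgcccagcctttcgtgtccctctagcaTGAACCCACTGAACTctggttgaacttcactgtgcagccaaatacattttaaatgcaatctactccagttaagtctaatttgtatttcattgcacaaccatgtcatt
Mast4 intron, chr13:104016508-104016707: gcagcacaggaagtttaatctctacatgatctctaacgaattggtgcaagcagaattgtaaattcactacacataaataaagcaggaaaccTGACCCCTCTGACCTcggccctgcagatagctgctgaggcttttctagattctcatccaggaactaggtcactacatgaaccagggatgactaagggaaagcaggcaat
Ptn side, chr6:36645585-36645784: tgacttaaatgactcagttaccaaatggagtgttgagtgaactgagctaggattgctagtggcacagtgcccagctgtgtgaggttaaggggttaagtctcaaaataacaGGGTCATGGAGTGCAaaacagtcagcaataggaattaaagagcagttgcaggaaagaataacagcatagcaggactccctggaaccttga
Fgfr2 intron, chr7:140078878-140079077: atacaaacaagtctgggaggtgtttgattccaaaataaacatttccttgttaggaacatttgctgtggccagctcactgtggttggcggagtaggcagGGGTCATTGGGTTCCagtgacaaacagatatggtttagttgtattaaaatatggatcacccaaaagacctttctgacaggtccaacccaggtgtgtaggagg
Bmpr1b intron, chr3:141697181-141697380: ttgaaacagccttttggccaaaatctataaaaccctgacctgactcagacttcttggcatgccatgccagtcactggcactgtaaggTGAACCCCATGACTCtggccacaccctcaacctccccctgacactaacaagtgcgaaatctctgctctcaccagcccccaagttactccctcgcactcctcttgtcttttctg
Abca12 intron, chr1:71386113-71386312: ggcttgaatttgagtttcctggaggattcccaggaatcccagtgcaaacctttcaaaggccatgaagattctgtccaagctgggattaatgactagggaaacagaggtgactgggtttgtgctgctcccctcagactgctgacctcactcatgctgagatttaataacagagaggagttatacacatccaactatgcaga
The element lies on the plus strand at Ptn and in the Fgfr2 intron, and on the minus strand in the other 5 windows that have one. The Fgfr2 gene model of the annotation used here is 3009.1 kb long, and the nearest transcription start site to that window is that of Fam175b.

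H4K5Ac-only regions were narrow and scored low. Their median width was 751 bp, against 2925 bp in the other H4K5Ac regions, and their median score was 12.3 against 128.7. Score and width rise together across the list (Spearman rho 0.932 across all regions, a description), so the 2 measures are not separate. In all, 4269 of the 12886 (33.1%) had the smallest width in the list, 500 bp, compared with 3.9% of the other regions. The H4K5Ac-only share was 65.3% among regions of 500 bp, 47.4% at 501 to 1000 bp, 18.6% at 1001 to 2000 bp, 5.56% at 2001 to 4000 bp and 0.805% above that. By score, it was 65.0% in the lowest-scoring 10% of the list and 7.76% in score class 5 of 10. Only 164 H4K5Ac-only regions (1.27% of them) stood in the higher-scoring 50% of the list. Since a wide region has more bases to share with another list, the main comparisons below are also given for regions up to 1 kb wide, of which there were 8850 H4K5Ac-only and 7345 others.

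**Figure D1:**
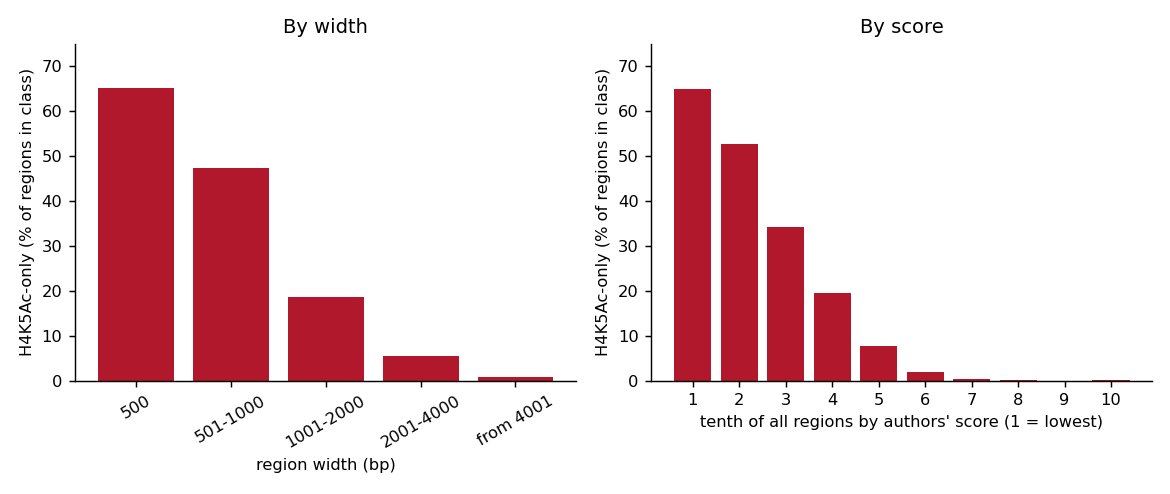
Share of day-35 H4K5Ac regions (y axis, percent of the regions in a class) that overlapped no H3K27Ac or H3K9Ac region, by region width in bp (left) and by class of the authors' score, each 10% of the list (right). The share falls from 65.3% at 500 bp to 0.805% above 4000 bp, and from 65.0% in the lowest score class to near 0 in the highest.

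Most H4K5Ac-only regions lay within 10 kb of a day-35 H3K27Ac or H3K9Ac region. The gap was measured to the lists that defined the members. It was not computed for other positions, so it describes the members alone. The gap to the nearest H3K27Ac or H3K9Ac region had a median of 6.07 kb (quartiles 3.56 and 11.8 kb), 41.0% of the regions lay within 5 kb and 69.6% within 10 kb, and 324 lay over 50 kb away. The 3 members nearest to the limit had a gap of 1 bp and scores of 5.2 to 5.5, and the 3 regions just outside it shared 2 bp with an H3-acetylated region and scored 10.8 to 11.3. Only 69 members had a gap of at most 100 bp, and 91 regions were left out for a total overlap of at most 100 bp. All 19 chromosomes held members, from 14.5% of H4K5Ac regions on chromosome 7 to 21.4% on chromosome 14.

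Few H4K5Ac-only regions lay at promoters. By its centre, 225 of them (1.75%, 1.53 to 1.99) had a transcription start site (TSS) of a protein-coding transcript within 1 kb, against 12.8% (12.5 to 13.1) of the other H4K5Ac regions. Outside every protein-coding transcript lay 7163 (55.6%), here called intergenic, against 40.6% of the others, and 5241 (40.7%) were intronic against 43.6%. Coding exons held 112 and UTRs 145. The median distance to a TSS was 44.0 kb, compared with 22.6 kb. Among regions up to 1 kb wide the differences were smaller at TSSs (1.82% and 5.45%) and similar for intergenic positions (53.1% and 36.4%).

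Median base composition was close in both sets, while GC-rich windows were less common in the H4K5Ac-only set. The central 500 bp of the H4K5Ac-only regions had a median GC content of 44.8% (quartiles 41.0 and 48.6), against 45.4% in the others, and a median ratio of observed to expected CpG of 0.185 against 0.213. GC content over 55% was found in 3.69% and 11.4%. The GC box GGGCGG, a letter pattern common in promoters, was present in 5.62% of the H4K5Ac-only windows, 13.5% of the others and 12.1% of all H4K5Ac windows of that length, counting both strands. Beyond 1 kb of a TSS the 2 groups had the same median GC content, 44.6%, and the GC box was in 5.43% and 7.75%. The AP-1 pattern TGANTCA was in 21.7% of H4K5Ac-only windows, 19.6% of the others and 14225 of all 71148 windows. The RUNX pattern TGTGGT was in 38.5%, 35.5% and 25634 of 71148, the TEAD pattern GGAATG in 29.2%, 26.7% and 27.2%, and the E-box CAGCTG in 26.6%, 24.3% and 24.7%. Among regions up to 1 kb wide the AP-1 shares were 22.2% and 22.4%, with overlapping intervals.

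Most H4K5Ac-only regions carried H3K4me1, and few carried other methylation marks. At day 35, 9876 of them (76.6%, 75.9 to 77.4) overlapped an H3K4me1 region, against 96.3% of the other H4K5Ac regions and 92.7% of all H4K5Ac regions. At day 3 the shares were 62.5%, 90.7% and 85.6%. H3K4me2, which marks enhancers and promoters, lay over 2579 at day 35 (others 73.7%, all 64.0%) and 7.03% at day 3 (others 54.3%, all 45.7%). So 57.6% of the H4K5Ac-only regions had H3K4me1 without H3K4me2 at day 35, compared with 23.1% of the others. At up to 1 kb wide the difference was smaller, with 55.9% against 46.3%. H3K4me1 was called at day 35 and not at day 3 over 2832 of them (22.0%, others 6.98%), and at day 3 alone over 1006 (7.81%, others 1.35%). H3K4me2 was called at day 35 alone over 1913 (14.8%, others 21.1%) and at day 3 alone over 240 (1.86%, others 1.74%). The day-3 and day-35 H3K4me2 lists differ in length, with 44797 and 65207 regions, and each day is 1 library, so the differences between days have no replicate check.

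H3K4me3 was nearly absent. It lay over 15 H4K5Ac-only regions at day 35 (0.116%, others 14.5%, all 11.9%) and over 12 at day 3 (0.0931%, others 17.3%, all 14.2%). At up to 1 kb wide H3K4me3 was rare in both sets, at 0.136% against 0.531% at day 35 and 0.0904% against 1.4% at day 3. Of the 15, 8 lay in 1 stretch of chromosome 10 between 116.3 and 117.5 Mb, around Cpsf6, Cpm and Mdm1, and 7 lay elsewhere. These genes were named after their values were seen. Among the 225 regions within 1 kb of a TSS, H3K4me3 covered 1 at day 35, near Slc45a2, and 0 at day 3, where 66.8% and 76.2% of the TSS regions with H3 acetylation had it. At day 35 H3K4me1 covered 82.2% of the 225 and H3K4me2 41.3%, against 98.6% and 96.6% of the other TSS regions.

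**Figure D2:**
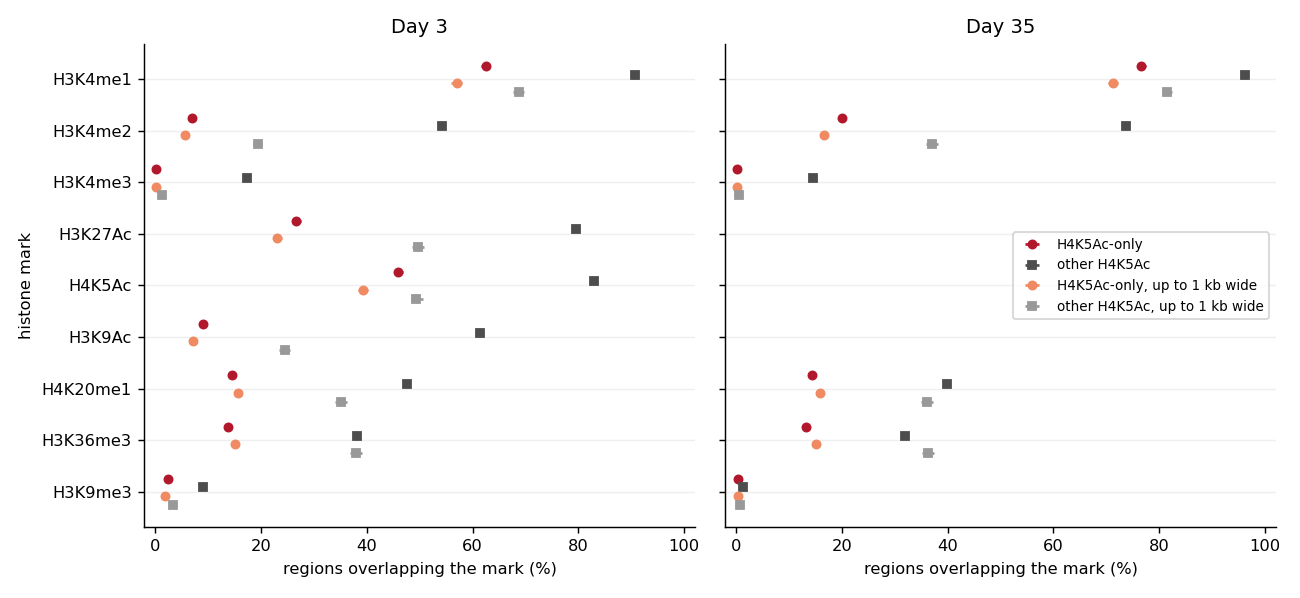
Percent of day-35 H4K5Ac regions that overlapped each histone mark (rows) at day 3 (left) and day 35 (right), with 95% Wilson intervals that cover counting only. Red circles are H4K5Ac-only regions and dark squares the others, and pale symbols show regions up to 1 kb wide. The rows of the 3 acetyl marks are empty at day 35 because they define the sets. H4K5Ac-only regions sit to the left of the others in every row shown.

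Marks of transcribed chromatin followed gene bodies. H3K36me3 lay over 13.3% of the H4K5Ac-only regions at day 35 (12.7 to 13.9, others 31.9%, all 28.5%) and 13.7% at day 3 (others 38.1%, all 33.7%). H4K20me1, a mark of the bodies of transcribed genes, lay over 14.3% at day 35 (others 39.9%, all 35.3%) and 14.6% at day 3 (others 47.7%, all 41.7%). Within introns the day-35 shares were 27.2% for H3K36me3 (others 50.0%) and 32.4% for H4K20me1 (others 58.2%). In intergenic positions they were 1.76% (others 8.72%) and 1.19% (others 9.15%). H3K9me3 was rare in both sets, at 0.388% at day 35 (others 1.33%, all 1.16%) and 2.35% at day 3 (others 9.07%, all 7.85%).

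The lower shares held within classes of width. In each of 5 width classes, and for each of the 15 combinations of mark and day that the choice did not use, the H4K5Ac-only regions had the lower share. The gap between the sets in H3K4me1 at day 35 ranged over the width classes from 3.6 to 9.5 percentage points, and in H3K36me3 at day 35 from 12.0 to 33.7. At up to 1 kb wide, H3K4me1 at day 35 was 71.3% against 81.5%, H3K4me2 16.6% against 37.1%, and H3K36me3 15.1% against 36.3%. Above 500 bp the width classes did not match the sets by score. Median scores were 5.5 in both sets at 500 bp, 13.6 against 17.9 at 501 to 1000 bp and 80.3 against 399.0 above 4000 bp.

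In combination, 5830 H4K5Ac-only regions (45.2%) had H3K4me1 and none of the 5 other methylation marks at day 35, against 11.3% of the others. A further 1904 (14.8%, others 0.63%) had none of the 6 methylation marks. At up to 1 kb wide these 2 shares were 42.8% and 17.8%, against 19.2% and 3.04%. The 1904 regions were short and weak, with a median width of 628 bp and a median score of 10.7.

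The day-3 lists divide the H4K5Ac-only regions by their earlier state. No acetyl mark was called at day 3 over 6663 (51.7%, 50.8 to 52.6), against 13.9% of the other H4K5Ac regions. H4K5Ac alone was called over 2609 (20.2%, others 5.54%), and H4K5Ac together with H3K27Ac or H3K9Ac over 3320 (25.8%, others 77.4%). H3K27Ac or H3K9Ac without H4K5Ac was called over 294 (2.28%, others 3.15%). In total H4K5Ac was present at day 3 over 46.0% of the H4K5Ac-only regions (others 83.0%, all 76.3%), H3K27Ac over 26.7% (others 79.6%, all 70.0%) and H3K9Ac over 9.15% (others 61.4%, all 51.9%). Either H3 acetyl mark was present over 28.0% (27.3 to 28.8, others 80.6%, all 71.1%). These regions had H3 acetylation called at day 3 and not at day 35.

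The earlier state went with the methylation marks. Of the 3320 regions with H4K5Ac and H3 acetylation at day 3, 94.3% had H3K4me1 at day 3 and 81.8% at day 35, and 32.5% had H3K4me2 at day 35, against 98.7%, 98.0% and 83.2% of the other H4K5Ac regions with that earlier state. Of the 6663 with no acetyl mark at day 3, 38.5% had H3K4me1 at day 3 and 74.6% at day 35, and 14.4% had H3K4me2 at day 35, against 49.2%, 90.1% and 38.0%. Median widths were 888 and 642 bp in the members and 3612 and 1344 bp in the others of the same earlier states. At up to 1 kb wide the differences at day 35 were smaller. With the first state, 75.7% against 86.0% had H3K4me1 and 29.1% against 51.8% had H3K4me2. With no acetyl mark at day 3 the shares were 70.5% against 78.9% and 11.9% against 23.4%. Among regions up to 1 kb wide, 57.9% of the H4K5Ac-only set and 39.5% of the others had no acetyl mark at day 3.

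**Figure D3:**
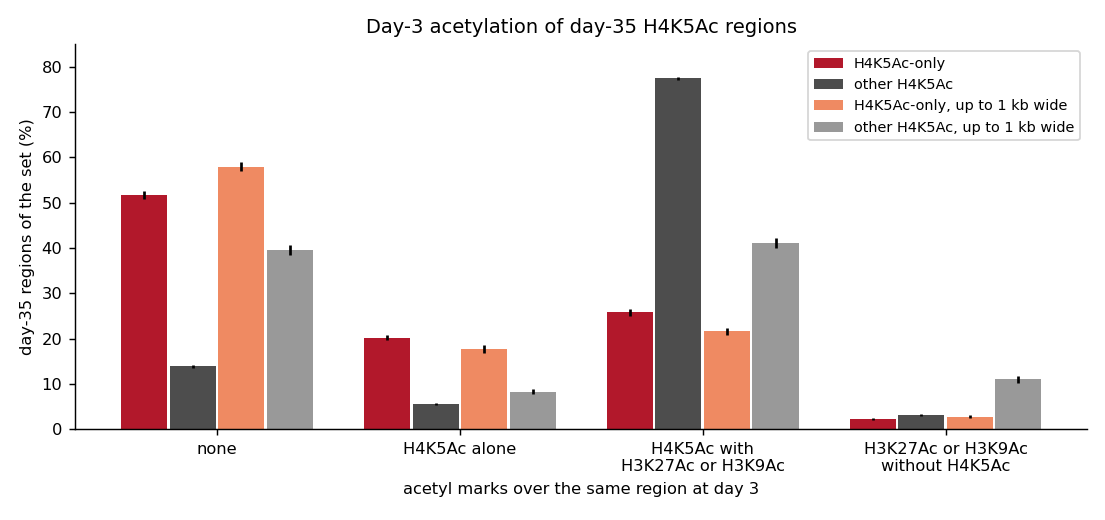
Acetyl marks called at day 3 over day-35 H4K5Ac regions (x axis), as a percent of the regions of each set (y axis), with 95% Wilson intervals that cover counting only. No acetyl mark at day 3 is the state of 51.7% of H4K5Ac-only regions and 13.9% of the others, and the pale bars give regions up to 1 kb wide.

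The same rule applied to the day-3 lists gave a set of similar size, most of which did not overlap the day-35 set. At day 3, 12901 of 67130 H4K5Ac regions (19.2%) overlapped no H3K27Ac or H3K9Ac region, with a median width of 644 bp. Of the day-35 set 2197 (17.0%) overlapped a region of the day-3 set, and 2204 of the day-3 set (17.1%) overlapped one of the day-35 set. Of the day-3 set 36.2% had H3K27Ac or H3K9Ac at day 35, and 45.4% had no H4K5Ac region at day 35. The shares of the day-3 set were not computed for the other day-3 H4K5Ac regions, so they describe this set alone. The part of narrow width and of differences between the day-3 and day-35 lists in these shares was not tested.

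Among the strongest H4K5Ac-only regions, 8 of the 10 with the highest score were intergenic and 6 were also among the 10 widest. The highest was a region of 15162 bp on chromosome 9 (mm9 chr9:77216852-77232013), 28.8 kb upstream of 2310046A06Rik, with a score of 665.8. At day 3 it held an H4K5Ac region of 10309 bp that scored 358.1, 2 H3K27Ac regions that scored 130.5 and 41.8, and 2 H3K9Ac regions that scored 119.5 and 70.7. At day 35 it held an H3K4me2 region of 1267 bp that scored 132.0 and an H3K4me1 region of 889 bp that scored 27.4. The nearest H3-acetylated region was an H3K9Ac region 3.43 kb away with a score of 9.4. Scores of different lists are not on a shared scale, so they are not compared with each other here.

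The next strongest were a 12592-bp region (chr6:52466633-52479224) 117.0 kb from the TSS of Hibadh, which encodes an enzyme of valine breakdown, with a score of 258.2, and an 8458-bp region (chr2:117587952-117596409) 345.0 kb upstream of Thbs1, which encodes the matrix protein thrombospondin 1, with 256.5. Regions nearest to Wdr11 (239.2), Kbtbd12 (192.9), Tomm20 (187.2), Spata13 (185.2), Fat4 (181.6), Gm9747 (175.9) and Nrp2 (175.5) completed the 10, the last lying inside Pard3b. The widest 10 added regions near Gm8730 (10926 bp) and Eif3h (8655 bp) and introns of Rgs3 (10198 bp) and Shroom3 (9979 bp). Of the 10 highest, 9 had H3K4me1 at day 35, 3 had H3K4me2 and none had H3K4me3, H3K36me3 or H4K20me1. H4K5Ac was present at day 3 over 8 of them, H3K27Ac over 4 and H3K9Ac over 2.

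The 10 highest-scoring regions with both H3K27Ac and H3K9Ac at day 3 ran from the chromosome 9 region above to one near Tmem74 with a score of 101.8. They included regions near Hibadh, Eif3h (134.4), Camk1g (119.0), Gm2574 (115.0), Lphn2 (113.5) and Cited2 (102.7), and introns of Ccdc42 (123.2) and Bmper (103.3). Bmper encodes a secreted regulator of bone morphogenetic proteins (BMPs), and its region is 3763 bp wide and 223.0 kb from the TSS (chr9:23249001-23252763). The 10 highest with no acetyl mark at day 3 included the Kbtbd12 region (9127 bp, chr6:88610425-88619551), 2 regions in Pard3b introns (175.5 and 118.3), regions near Dock8 (152.0), Cpeb4 (119.5), Serp2 (115.9) and Rpl13-ps3 (112.3), and introns of Cacna1d (131.2), Fam83g (119.8) and Magi1 (106.4). All 10 had H3K4me1 at day 35.

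**Figure D4:**
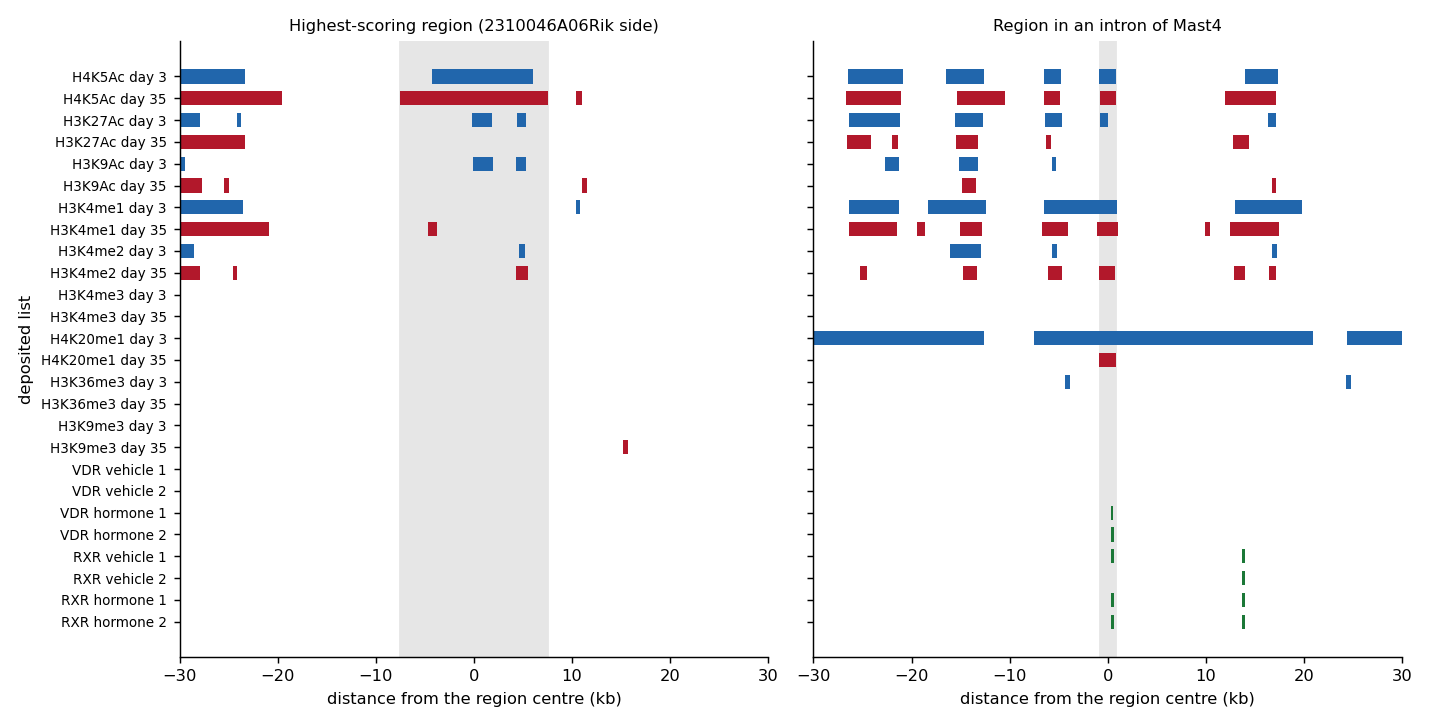
Regions of every deposited list (rows; blue day 3, red day 35, green factor peaks) within 30 kb of the centre of 2 H4K5Ac-only regions, shaded, against distance from that centre in kb. Left, the highest-scoring region has H3K27Ac and H3K9Ac segments at day 3 and none at day 35 inside the shading. Right, the Mast4 region holds VDR peaks of both hormone libraries and RXR peaks of both hormone libraries and 1 vehicle library.

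A gene was counted where an H4K5Ac-only region lay in its body or within 5 kb, which 3780 of 21418 protein-coding genes did (17.6%). Long genes were counted most, from 3.94% in the shortest of 5 equal length classes to 47.0% in the longest, and 3465 of the 3780 (91.7%) also had another H4K5Ac region. The 10 genes with the largest summed length of H4K5Ac-only regions were all over 400 kb long in this annotation. Pard3b, a polarity gene, led with 27 regions over 52.61 kb, or 5.19% of its length with flanks, beside 30 other H4K5Ac regions. Gm20388 (47 regions, 50.72 kb), 1700112E06Rik (25, 25.1 kb), Cacna2d3 (14, 24.73 kb) and Fgfr2 (28, 24.33 kb) followed, then Erc2, Wwox, Maml3, Atp8a2 and Enox1 with 18.09 to 20.61 kb. Gm20388 (4434.9 kb) and Fgfr2 (3009.1 kb) are models that span other genes.

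None of 20 osteoblast genes (Runx2, Sp7, Col1a1, Alpl, Ibsp and others) had an H4K5Ac-only region, while all 20 had another H4K5Ac region. The interval for 0 of 20 reaches 16.1%, and the median length of these genes was 11.3 kb. All genes stood at 17.6%. The gene length classes with medians of 6.28 and 15.5 kb stood at 6.38% and 10.6%, inside that interval. The counts were also 0 of 8 for housekeeping genes, 1 of 13 for osteocyte genes and 1 of 19 for cytoskeleton and adhesion genes. Chondrocyte genes stood at 5 of 9, with an interval of 26.7 to 81.1%. Endothelial genes stood at 3 of 6, neural genes at 2 of 6, myogenic genes at 2 of 7, adipocyte genes at 2 of 8, blood and osteoclast genes at 2 of 9 and proliferation genes at 2 of 16. Another H4K5Ac region was present at 13 of 13 osteocyte and 8 of 8 housekeeping genes, and at 3 of 7 myogenic and 3 of 6 neural genes. The lists were not tested. Their median gene lengths were 11.1 kb for chondrocyte, 71.0 kb for endothelial, 41.3 kb for neural and 3.23 kb for myogenic genes. Housekeeping genes had a median of 4.5 kb and cytoskeleton and adhesion genes one of 26.8 kb. A median does not show single long genes. Sox5 (953.6 kb) and Sox6 (567.4 kb) held 12 and 8 of the 23 chondrocyte regions. The part of gene length in these shares was not tested.

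Among chondrocyte genes, Sox5, a transcription factor of cartilage formation with a gene length of 953.6 kb, held 12 H4K5Ac-only regions of 630 to 1363 bp. H3K4me1 covered all 12 at day 3 and 10 at day 35, and H4K5Ac 8 and H3K27Ac 7 at day 3. Its partner Sox6 (567.4 kb) held 8. The single region of Acan, the gene of the cartilage proteoglycan aggrecan, was an intronic 1923 bp (chr7:86224383-86226305) with a score of 81.7 and no other mark at either day. Matn1, of the cartilage matrix protein matrilin 1, held 1 region of 753 bp with all 3 acetyl marks at day 3.

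In the vitamin D list 4 of 18 genes (22.2%, median length 20.2 kb) were counted, against 17.6% of all genes. Vdr itself held 2 regions, of 641 bp in an intron and of 1185 bp within 1 kb of a TSS, both with H3K4me1 at both days, the first also with H4K5Ac and H3K27Ac at day 3. Cbs, of the enzyme cystathionine beta-synthase, held a region of 2489 bp with a score of 105.9 (chr17:31748622-31751110) in a UTR by its centre. Enpp3, an ectonucleotide pyrophosphatase, held 2 intronic regions of 3195 and 916 bp, and Slc34a1, a phosphate carrier, held 1 of 500 bp. Enpp3, Slc20a2, a phosphate carrier, and Ank, a gene of pyrophosphate release, were the 3 of 14 mineralization genes (21.4%, median length 24.1 kb).

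Of the signalling lists, 5 of 20 Wnt genes (25.0%, median length 47.3 kb) and 3 of 22 BMP and TGF-beta genes (13.6%, 62.9 kb) were counted. Of all genes 17.6% were counted. The length classes with medians of 6.28, 34.0 and 105.0 kb stood at 6.38%, 20.3% and 47.0%. Dkk2, a secreted Wnt regulator, held 2 intronic regions of 1624 and 2617 bp that had H4K5Ac and H3K4me1 at both days and no H3K27Ac at day 3. The transcription factors of Wnt signalling Lef1, Tcf7l1 and Tcf7l2 held 2, 1 and 1. Bmpr1b, a BMP receptor, held 4 intronic regions, 1 of them with VDR after hormone, the ligand gene Tgfb2 held 1 of 3427 bp and the receptor gene Tgfbr1 held 2. Interferon genes stood at 4 of 15 (26.7%, interval 10.9 to 52.0, median length 8.36 kb). Among them were Gbp3 with 2 regions, of 500 and 800 bp, and Irf8 and Ciita with 1 each. Collagen genes stood at 7 of 24 (29.2%, interval 14.9 to 49.2, median length 110.0 kb). They were led by Col4a1 (2 regions, 2.79 kb), Col15a1 (2, 2.69 kb), Col14a1 (3, 2.09 kb) and Col11a2 (1, 0.98 kb). The part of gene length in these shares was not tested either.

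Among the lists of other cell types, Pparg, the main adipocyte transcription factor, held 2 intronic regions of 2089 and 1018 bp with scores of 66.0 and 33.2, both with all 3 acetyl marks at day 3, and Lpl held 1. Kdr, Vwf and Cdh5, genes of endothelial cells, held 1 each, as did Myh3 and Myog of muscle and Ptprc of blood cells, while the neural genes Rbfox3 and Mtap2 held 2 and 1. The proliferation marker Mki67 held 2, of 778 and 646 bp, both with H4K5Ac and H3K27Ac at day 3, and Top2a held 1. Among genes that write, erase or read acetylation, 5 of 22 were counted (22.7%, median length 52.3 kb, all genes 17.6%). The deacetylase genes Hdac9 (481.3 kb) and Hdac4 (215.6 kb) held 12 and 4 regions. The acetyltransferase genes Kat2b (105.9 kb) and Hat1 (52.7 kb), the latter of an H4 acetyltransferase, held 1 each. The remaining gene counted, also of a deacetylase and 51.8 kb long, held 1.

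VDR was seen in H4K5Ac-only regions only with hormone. The number with a VDR peak was 0 and 0 in the vehicle libraries and 33 and 22 in the hormone libraries. The arms did not overlap, and the mean of 27.5 ± 7.78 (SD, n = 2) was at least 9.17-fold higher than a floor of 3 regions per vehicle library. A count of 0 among 12886 allows a share of up to 0.0233%. The exact two-sided permutation test of 2 libraries against 2 gave p = 0.333, the smallest value it can give. The lists themselves held 286 and 333 VDR peaks with vehicle and 1595 and 1315 with hormone. Other H4K5Ac regions with a VDR peak numbered 304.0 ± 32.5 and 1230.5 ± 151.0 (SD, n = 2 each), a ratio of 4.04.

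RXR was seen in both arms. The number of H4K5Ac-only regions with an RXR peak was 71 and 18 with vehicle and 127 and 81 with hormone, for replicates 1 and 2. The lower hormone library stood above the higher vehicle library. The same held for the RXR lists themselves, with 6814 and 4075 peaks with vehicle and 10251 and 7584 with hormone. It also held for the other H4K5Ac regions, with 5359 and 3473 against 7622 and 5980. In the H4K5Ac-only regions the ratio of geometric means was 2.84, with 1.79 in replicate 1 and 4.5 in replicate 2. The exact two-sided permutation p was again 0.333. In the other H4K5Ac regions the ratio was 1.56, with 1.42 and 1.72 by replicate. The difference between the sets in this ratio was not tested. Replicates 1 and 2 differ in library labels as well as in peak number, so the values by replicate stand beside the pooled one.

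**Figure D5:**
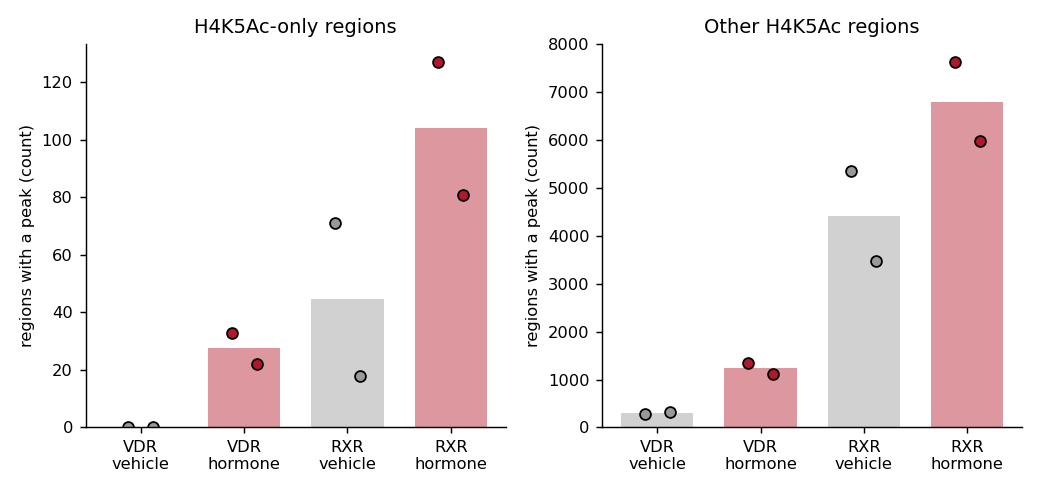
Number of H4K5Ac-only regions (left) and other H4K5Ac regions (right) with a VDR or RXR peak (y axis, counts), for vehicle (grey) and hormone (red); points are the 2 libraries of an arm, replicate 1 at the left, and bars their mean. In the H4K5Ac-only regions VDR is 0 in both vehicle libraries and 33 and 22 with hormone.

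Factor sites were rarer in H4K5Ac-only regions than in the list as a whole. A VDR peak in both hormone libraries was found in 20 (0.155%, 0.1 to 0.24), against 1.78% of the others and 1.48% of all H4K5Ac regions, and an RXR peak in both in 74 (0.574%, 0.458 to 0.72), against 9.3% and 7.72%. The size of the difference varied with width. Among regions of 500 bp RXR was in 0.328% of the H4K5Ac-only set and 0.441% of the others, and VDR in 0.0937% and 0.0881%. At 2001 to 4000 bp RXR was in 1.36% and 5.56%, and above 4000 bp RXR was in 2 of 179 (1.12%) and 18.8%, and VDR in 0 of 179 and 3.23%.

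Since no H4K5Ac-only region had a VDR peak with vehicle, all 20 regions with VDR lacked one in both vehicle libraries. Among the other H4K5Ac regions with VDR in both hormone libraries, 721 of 1035 (69.7%) had none with vehicle. Of the 20, 13 had RXR in both hormone libraries, as did 0.574% of all H4K5Ac-only regions. H3K4me1 covered 19 of the 20 at day 35 and 17 at day 3, and H4K5Ac 10 and H3K27Ac 9 at day 3. Over all H4K5Ac-only regions these 4 mark shares were 76.6%, 62.5%, 46.0% and 26.7%. The differences were not tested. An RXR peak was present with vehicle in 2 of the 20, Mast4 and Cad. VDR scores ran from 6.4 to 27.3. The highest were in an Abca12 intron (24.1 and 27.3 in the hormone libraries, with RXR 16.6 and 14.6), in an intergenic region nearest to Gm9726 (VDR 25.2 and 25.8), in the Fgfr2 intron (19.4 and 18.7) and 114.0 kb from Ptn, which encodes the growth factor pleiotrophin (18.2 and 16.0). The Mast4 intron had VDR scores of 15.3 and 16.3, and RXR scores of 7.4 in 1 vehicle library and 13.0 in both hormone libraries. Introns of Ldlrad3 (11.5 and 18.4), Ccdc102a (14.4 and 13.9) and Bmpr1b (12.0 and 14.2) also had RXR in both hormone libraries, and the region near the TSS of Gm11563 (12.6 and 14.2) had none. An intron of Mfsd7c, nearest to 0610007P14Rik (9.7 and 11.9), completed the 10 with the best mean rank.

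Most of the 10 RXR regions with the best mean rank, which is by RXR score with hormone, had RXR without hormone too. RXR was present in both vehicle libraries in 6 of them, and 2 had VDR in both hormone libraries. They lay near Rab11fip2 (RXR 19.3 and 12.6 with vehicle, 20.7 and 19.8 with hormone), Kdr (17.9 and 19.2, 20.7 and 18.9), Gm17231, Zfp704, Abca12, Fgg, Foxf1a, Pappa, Cad and Ccdc91. Kdr encodes a receptor for vascular endothelial growth factor, and the region lies 107.0 kb from its TSS. At Abca12 RXR had no vehicle peak, and at Rab11fip2 and Kdr the vehicle and hormone scores are side by side with no test. Of all 74 RXR regions, 55 had no VDR peak in any library, 54 were intergenic, and H3K4me1 covered 74 at day 35. Of all H4K5Ac-only regions, 55.6% were intergenic and 76.6% had H3K4me1 at day 35. RXR was in both vehicle libraries in 16 of the 74 and in no vehicle library in 29 (39.2%). Among the other H4K5Ac regions with RXR in both hormone libraries, 15.9% had none with vehicle.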

How the data were processed

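Per the submitters' processing notes, the authors' tools were Bowtie and HOMER and the build was mm9; the sources used here state no versions or settings, nor how the 2 inputs entered. The deposited score of each region is the authors' own, per library, with no scaling stated, and was used only for ranks and limits inside 1 list. The 26 lists (9360 to 100123 regions per mark, 291 to 10333 peaks per factor library) were compared by overlap of at least 1 bp in Python 3.11.15 with numpy 2.4.6 and pandas 2.3.3. The overlap code was checked on simulated regions against bedtools 2.31.1. Read depth is unknown, so precision is given as 95% Wilson intervals, which cover counting of regions only.

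Genes came from GENCODE M1 on NCBIM37, the mm9 assembly, with 21418 protein-coding genes on chromosomes 1 to 19; 241 of 248 listed genes were matched. Location classes use the region centre, and genes the body with 5 kb on each side. Peak numbers were compared by an exact permutation test. Sequences were read from the same assembly. Chromosomes X and Y were left out. The labels' extraction text writes H3K5Ac where the antibody label says H4K5Ac, and the latter was used.

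Members, lists and tests were chosen with earlier results of these data known. Genes are named as the nearest to the 10 highest-scoring and 10 widest regions, the 10 best VDR and RXR regions, the 10 highest with and without day-3 acetylation, the 10 genes with most length, and up to 4 genes per list; 5 osteoblast genes are given as examples of a list with no member. For a symbol with several gene models the longest was used. Chromosome 18 genes were not named. Alternatives covered the overlap, the score limits, the distance to H3 acetylation, merging, chromosome 10, window size and replicates.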

Additional observations from a re-analysis of the deposited data

How the results depend on the processing

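The number of H4K5Ac-only regions stayed between 8617 and 13385 under 5 of 8 alternatives, and depended most on the score limits. It was 164 in the higher-scoring 50% of H4K5Ac regions, 36120 when only the higher-scoring 50% of H3K27Ac and H3K9Ac regions counted, and 6611 when H4K5Ac regions closer than 5 kb were merged. Merging at 5 kb and leaving out 500-bp regions were chosen after seeing the data. In the higher-scoring 50% of H4K5Ac regions, 0.61% lay within 1 kb of a TSS, 95.1% had H3K4me1 and 3.05% H3K36me3 at day 35, 83.5% had H4K5Ac and 50.0% H3K27Ac or H3K9Ac at day 3. With the higher-scoring 50% of the H3 lists the same shares were 2.23%, 87.9%, 18%, 60.1% and 49.3%; this set takes in weakly H3-acetylated regions. An overlap of at least 50% of the shorter region gave 74.2% with H3K4me1, and 44.3% with H4K5Ac and 27.3% with H3 acetylation at day 3. Regions over 1 kb from H3 acetylation gave 12.2% with H3K36me3. The 1 kb window on the centre gave 27.3% with H3 acetylation at day 3. Merging at 5 kb gave 82.4% with H3K4me1, 11.1% with H3K36me3 and 31.0% with H3 acetylation at day 3. Without 500-bp regions the shares were 83.0% with H3K4me1, 10.7% with H3K36me3, 52.9% with H4K5Ac and 32.1% with H3 acetylation at day 3. The cause of these shifts was not tested. Merging at 1 kb changed nothing, since the smallest gap between 2 regions is 2000 bp, and leaving out chromosome 10 moved no share beyond its interval.

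The RXR ratio and the VDR difference (27.5 regions, hormone minus vehicle mean) kept their direction under all 12 alternatives, from 1.79 to 4.5 and from 0.5 to 144.0; the VDR difference of 0.5 is that of the higher-scoring 50% of H4K5Ac regions, where a VDR peak was found in 1 region in 1 hormone library, the arms overlapped and the exact permutation p was 1.0. Leaving out a replicate gave RXR ratios of 1.79 and 4.5 and VDR differences of 22.0 and 33.0, with no test. With the replicate block, the ratio of 2.84 and the difference of 27.5 had an exact sign-flip p of 0.5, the smallest it can give. Several of the 12 could not reverse a direction. Merging at 1 kb left the same regions, and the replicate block left the same ratio and difference. As no member had a VDR peak with vehicle, no subset of the members could reverse the VDR difference. Same-numbered libraries deviated together with r = 0.181 over 3414 RXR sites and 0.308 over 276 VDR sites found in all 4 libraries, and with 2 pairs and no label for a shared day the samples share only a number.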
